A study of Mus musculus with 8 samples.

Results

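The antigen receptor loci of the mouse are the stretches of the genome that encode the T cell receptor chains (Tcra and Tcrd, Tcrb, Tcrg) and the immunoglobulin heavy and kappa light chains (Igh, Igk). Bcl11b-bound intervals were taken as members by position alone, when the midpoint lay inside the window of a locus on mm10. The windows were chr14:52427967-54224198 for Tcra and Tcrd, chr6:40891296-41558371 for Tcrb, chr13:19178042-19352343 for Tcrg, chr12:113287389-116009954 for Igh and chr6:67555636-70726754 for Igk. This gave 350 of 93708 intervals, of which 142 lay in Tcra/Tcrd, 57 in Tcrb, 14 in Tcrg, 132 in Igh and 5 in Igk.

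Binding of Bcl11b, a zinc finger transcription factor of the T cell lineage, was read out by ChIP-seq, the sequencing of DNA precipitated with a bound protein, in fresh thymocytes, the developing T cells of the thymus. The study compared 3 libraries of Bcl11b+/N440K mice, which carry 1 allele with a lysine in place of asparagine at the labelled residue and 1 wild type allele, with 3 libraries of Bcl11b+/+ mice. Both genotypes were precipitated with the same rabbit antibody against Bcl11b (A300-385A, Bethyl), and 2 input libraries of Bcl11b+/+ thymocytes were not analysed here. The labels used here give no strain or age and do not say that replicates were separate animals. The p-values therefore measure only how far these libraries vary, which may be technical variation. The antibody was not described as specific for either form of the protein, so the signal of the mutant and of the wild type protein in heterozygous cells cannot be told apart, and the counts do not show the N440K exchange itself.

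Antigen receptor genes are assembled during lymphocyte development by V(D)J recombination, in which the Rag1 and Rag2 proteins cut beside variable (V), diversity (D) and joining (J) segments and repair enzymes join them, with loss or inversion of the DNA in between. Enhancers near the constant (C) regions open the J segments and drive transcription of the assembled gene. Thymocytes rearrange the T cell receptor loci, whereas complete rearrangement of Igh and Igk belongs to B cells.

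Each library held 1812952 to 2123877 counted reads in intervals in Bcl11b+/N440K and 1787899 to 2661343 in Bcl11b+/+. Levels are given as CPM, the counts of an interval scaled to the size of its library. Of the 63098 intervals tested by edgeR's quasi-likelihood test, 1.14% passed a Benjamini-Hochberg adjusted p of 0.05, which is what "called" means below, with 0.46% called higher and 0.681% called lower in Bcl11b+/N440K. Intervals were found near 12 of 12 thymocyte marker genes, near 6 of 9 B cell marker genes (none near Cd79a, Ms4a1 or Vpreb1) and near 2 of 5 myeloid marker genes. Binding near a gene is not its expression, and the share of each cell type was not measured. In whole thymocytes, fewer cells that bind Bcl11b at a site and less binding per cell cannot be told apart.

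Sequence is shown for 3 gene promoters, since these are the windows of 300 bases around RefSeq gene starts (GRCm38.p6) that share more than 100 bases with a member, and 1 of them held an interval that was lower in Bcl11b+/N440K. All 3 belong to predicted genes of the V regions with no role given here. Gm40900 (chr12:115703580-115703879, plus strand) and Gm30948 (chr12:115262401-115262700, plus strand) lie among the Igh V segments, and Gm30392 (chr14:53961603-53961902, minus strand) lies among the Tcra and Tcrd V segments. Each sequence runs 5′ to 3′ on the gene's strand, with the bases inside the Bcl11b interval in capitals.
Gm40900: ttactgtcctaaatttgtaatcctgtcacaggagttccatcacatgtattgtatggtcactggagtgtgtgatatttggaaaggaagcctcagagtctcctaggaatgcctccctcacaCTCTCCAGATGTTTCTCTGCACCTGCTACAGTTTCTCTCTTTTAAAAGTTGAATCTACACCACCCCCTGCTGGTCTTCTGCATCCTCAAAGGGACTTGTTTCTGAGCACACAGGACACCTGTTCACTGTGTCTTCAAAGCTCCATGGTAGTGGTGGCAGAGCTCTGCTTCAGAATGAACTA
Gm30948: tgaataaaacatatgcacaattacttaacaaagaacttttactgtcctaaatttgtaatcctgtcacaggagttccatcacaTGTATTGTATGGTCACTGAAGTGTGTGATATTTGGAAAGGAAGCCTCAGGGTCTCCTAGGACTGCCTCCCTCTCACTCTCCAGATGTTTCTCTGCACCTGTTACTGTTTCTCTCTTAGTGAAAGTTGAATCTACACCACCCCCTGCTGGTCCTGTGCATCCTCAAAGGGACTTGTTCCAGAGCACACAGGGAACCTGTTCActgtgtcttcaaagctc
Gm30392: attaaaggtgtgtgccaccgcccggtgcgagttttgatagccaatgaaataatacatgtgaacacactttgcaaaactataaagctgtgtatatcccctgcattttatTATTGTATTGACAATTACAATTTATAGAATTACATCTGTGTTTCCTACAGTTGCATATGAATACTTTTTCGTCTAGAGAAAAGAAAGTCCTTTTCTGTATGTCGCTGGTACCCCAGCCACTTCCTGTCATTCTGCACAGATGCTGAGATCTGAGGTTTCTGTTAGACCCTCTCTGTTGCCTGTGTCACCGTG

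The Gm40900 window shared 181 bases with an interval at 6.09, 1.83 and 9.37 CPM in Bcl11b+/N440K, against 16.1, 14 and 14.2 CPM in Bcl11b+/+. All 3 Bcl11b+/N440K libraries lay below all 3 Bcl11b+/+ libraries, and the interval was called lower (log2 fold change -1.29 ± 0.32 SE, adjusted p = 0.0253, edgeR). Gm30948 and Gm40900 were 94.3% identical over 262 aligned bases, so reads from these copies may not be told apart. The Gm30948 interval, wholly inside its window, was under the filter on low counts with 3, 5 and 8 reads in Bcl11b+/N440K, against 7, 9 and 2 reads in Bcl11b+/+. The Gm30392 window shared 192 bases with an interval that did not differ by more than the spread, at 12.6 ± 2.31 CPM in Bcl11b+/N440K and 13.2 ± 1.16 CPM in Bcl11b+/+ (SD, n = 3 each; log2 fold change -0.04 ± 0.26 SE, edgeR adjusted p = 0.968).

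Motif letters were searched on both strands of these windows. The heptamer of the recombination signal, CACAGTG, occurred once in Gm40900, inside the interval, and once in Gm30948, across the edge of it, and is found in 6.8% of 32851 such windows of the genome. A Tcf core, CTTTGA, which is found in 16% of windows, occurred at 2 positions in each of these windows and at none in Gm30392. Neither the Runx core TGTGGT (16.8% of windows) nor the octamer ATTTGCAT of immunoglobulin promoters (1.7%) occurred in the 3 windows. No listed motif overlapped another, and a match is a run of letters and not a binding site.

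Bcl11b intervals were dense in 4 of the 5 loci. There were 85.4 intervals per Mb in Tcrb, 80.3 in Tcrg, 79.1 in Tcra/Tcrd and 48.5 in Igh, against 34.4 per Mb over all chromosomes up to their last interval. Igk, the locus of the kappa light chain, held 1.58 per Mb. Most of these intervals were weak: the median over members was 4.89 CPM, against 7.62 CPM over the whole table. The filter on low counts passed 167 of the 350 members (47.7%), against 67.3% of the whole table. The 183 members under it had means of 0.984 to 5.68 CPM over the 6 libraries. These included the lowest interval of the table, 101 bp 5′ of Trav16d-dv11, with 0, 2 and 9 reads in Bcl11b+/N440K and 0 reads in each Bcl11b+/+ library.

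Of the 167 tested members, 13 (7.78%) were called, 2 higher and 11 lower in Bcl11b+/N440K, against 1.14% of all tested intervals. Of these calls, 12 lay among the 50 tested intervals of the Igh V region, and 1 lay among the other 117 tested members, which is 0.855% and near the share of the whole table. At 52 tested members no library of one genotype reached into the range of the other, and at 37 of these Bcl11b+/N440K was the lower one. The same held for 17.3% of all tested intervals, with 8.95% lower in Bcl11b+/N440K. An unadjusted p under 0.05 was reached by 43 members, against 12.7% of all tested intervals. The median log2 fold change was -0.03 over the 104 tested members of the T cell receptor loci and -0.47 over the 63 of the immunoglobulin loci, beside 0.00 over all tested intervals.

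**Figure D1:**
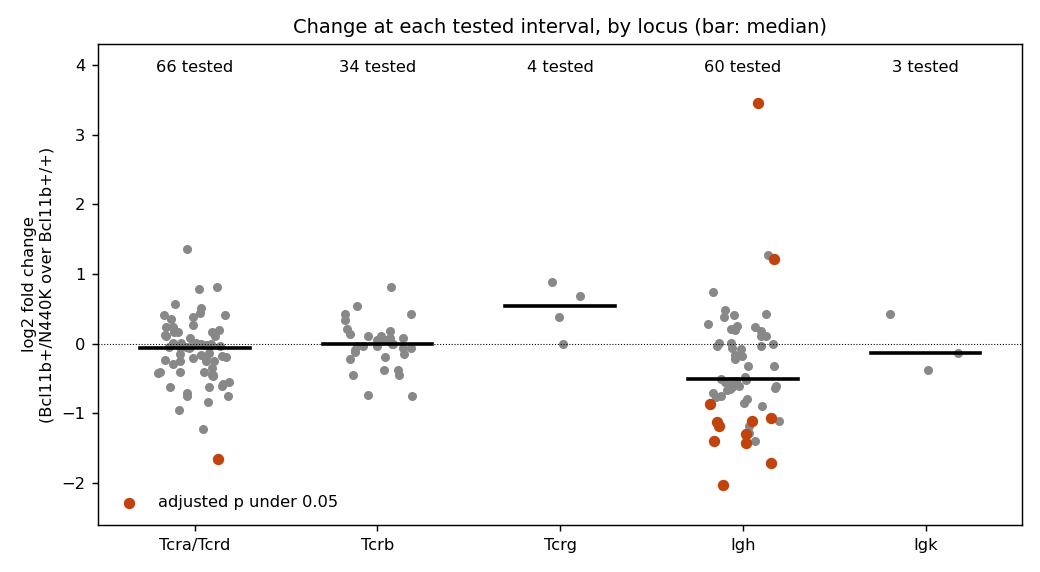
Log2 fold change of each tested interval (Bcl11b+/N440K over Bcl11b+/+, y axis) in the 5 loci (x axis), with black bars at the medians and orange points at an edgeR adjusted p under 0.05. The Igh points range from -2.03 to 3.45 with 12 called, and 1 of the Tcra/Tcrd points is called.

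The number of calls depended on single libraries and on the tool. Without Bcl11b+/N440K library 1, 2 of the 13 calls remained, without its library 2, 7 remained, and without its library 3, 9 remained. Without Bcl11b+/+ library 1, 9 remained, without its library 2, 8 remained, and without its library 3, 3 remained. DESeq2 called 1 member (0.0951% of all tested intervals) and limma voom called 3 (0.504%), and all of these lay in the Igh V region. No called interval changed direction under any of the alternatives run.

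Strong Bcl11b signals of Tcra and Tcrb lay in or toward the spans that are known to hold enhancers. The largest was an interval (chr14:54227455-54227655) 3.36 kb past Trac, the C region of the alpha chain, and so just outside the window, toward the Tcra enhancer that drives alpha chain rearrangement and expression. It ranked 19 of 93708 by mean CPM. Its signal was 133, 139 and 145 CPM in Bcl11b+/N440K, against 134, 121 and 110 CPM in Bcl11b+/+. The libraries overlapped, and the difference missed the threshold (log2 fold change 0.20 ± 0.10 SE, edgeR adjusted p = 0.377). A neighbour 2.83 kb past Trac had 66.5 ± 8.33 CPM in Bcl11b+/N440K and 63.8 ± 2.03 CPM in Bcl11b+/+ (SD, n = 3 each), and one 9.29 kb past Trac had 68.2 ± 6.67 CPM in Bcl11b+/N440K and 61.9 ± 4.57 CPM in Bcl11b+/+. At the opposite end of the locus, just outside the window and 157 bp from Trav1, the first V segment, an interval had 66.8 ± 5.85 CPM in Bcl11b+/N440K and 56.2 ± 6.0 CPM in Bcl11b+/+ (SD, n = 3 each; edgeR adjusted p = 0.425).

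In Tcrb, the signal was concentrated at the C region end. The span between Trbc2, the second beta chain C region, and Trbv31, the only V segment downstream of it, holds the Tcrb enhancer and held the strongest member of all 5 loci (chr6:41554394-41554594, rank 94). It had 106, 89.7 and 85.9 CPM in Bcl11b+/N440K, against 91.1, 92.2 and 88.4 CPM in Bcl11b+/+. These libraries overlapped (log2 fold change 0.05 ± 0.11 SE, edgeR adjusted p = 0.896). The second interval of the span (chr6:41553362-41553562, rank 1306) had 50.9, 43.9 and 50.5 CPM in Bcl11b+/N440K, against 53.3, 48.6 and 57.1 CPM in Bcl11b+/+, which also overlapped (-0.12 ± 0.14 SE, edgeR adjusted p = 0.778). Between Trbj2-7, the last J segment, and Trbc2, 3 intervals lay, the strongest at 40.0 ± 1.37 CPM in Bcl11b+/N440K and 38.4 ± 0.638 CPM in Bcl11b+/+ (SD, n = 3 each; edgeR adjusted p = 0.921). The neighbour nearer to Trbc2 differed by less than the spread, with 21.3 ± 0.742 CPM in Bcl11b+/N440K and 20.9 ± 2.32 CPM in Bcl11b+/+. An interval 216 bp 5′ of Trbd2, a D segment, had 24.2 ± 1.09 CPM in Bcl11b+/N440K and 22.9 ± 2.78 CPM in Bcl11b+/+ (SD, n = 3 each; edgeR adjusted p = 0.905).

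**Figure D2:**
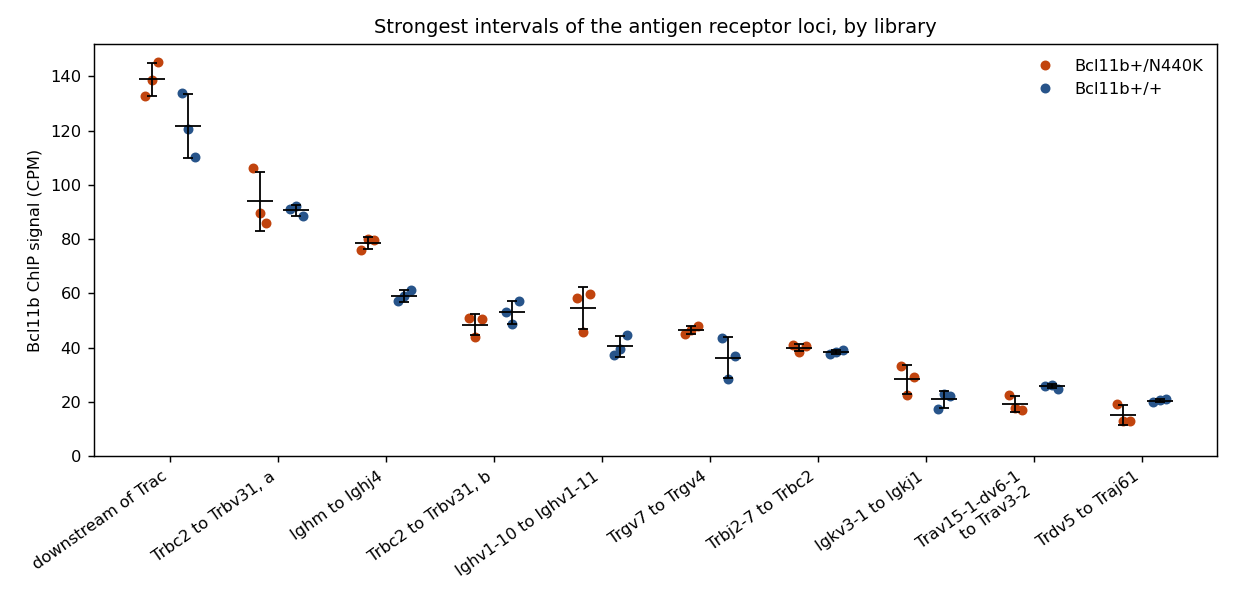
Bcl11b ChIP signal (CPM, y axis) in each library at the interval past Trac and at 9 intervals from chosen spans inside the windows (x axis), Bcl11b+/N440K in orange and Bcl11b+/+ in blue, with bars at the mean ± SD of 3 libraries. These are not the highest of all members: the interval inside Ighv1-12 (mean 33.7 CPM) is left out, while the one between Trdv5 and Traj61 (17.8 CPM) is shown. The interval past Trac lies at 133 to 145 CPM in Bcl11b+/N440K and at 110 to 134 CPM in Bcl11b+/+. Without overlap, Bcl11b+/N440K is the higher one at Ighm to Ighj4, Ighv1-10 to Ighv1-11 and Trgv7 to Trgv4. It is the lower one, also without overlap, at Trav15-1-dv6-1 to Trav3-2 and Trdv5 to Traj61. None of these intervals was called.

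The Tcrb V segments carried weaker signal. Of the 46 V region intervals, 24 were tested, with a median log2 fold change of -0.03. The strongest lay 421 bp 5′ of Trbv12-2, at 25.9 ± 4.95 CPM in Bcl11b+/N440K and 26.6 ± 0.760 CPM in Bcl11b+/+ (SD, n = 3 each). No interval of the 34 tested in Tcrb was called by edgeR, DESeq2 or limma voom, and 0 reached an unadjusted p under 0.05 in edgeR, while 12.7% of all tested intervals did. The log2 fold changes ranged from -0.75 to 0.82. The smallest p values belonged to a pair of weak intervals between Trbv30 and Trbd1, the first D segment. One, 2874 bp from Trbd1, had 6.73 ± 0.616 CPM in Bcl11b+/N440K and 3.91 ± 1.29 CPM in Bcl11b+/+ (edgeR adjusted p = 0.412). The other, 860 bp from Trbd1, had 4.70 ± 0.702 CPM in Bcl11b+/N440K and 8.08 ± 2.92 CPM in Bcl11b+/+ (edgeR adjusted p = 0.432).

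Summed over all 57 intervals, Tcrb took 0.0561 ± 0.00146% of the counts in Bcl11b+/N440K and 0.0552 ± 0.00114% in Bcl11b+/+ (SD, n = 3 each), which differed by less than the spread.

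In Tcra/Tcrd, 123 of the 142 intervals lay in the V region, which spans most of the window. The locus took 0.0793 ± 0.00763% of the counts in Bcl11b+/N440K and 0.0845 ± 0.00543% in Bcl11b+/+ (SD, n = 3 each), within the spread. Of its 66 tested intervals, 41 had a negative and 25 a positive log2 fold change, with a median of -0.05, and 1 was called. That interval (chr14:53830906-53831106) lay 99 bp 5′ of Trav18, an alpha chain V segment. It had 3.32, 1.83 and 4.16 CPM in Bcl11b+/N440K, against 8.05, 10.7 and 11.2 CPM in Bcl11b+/+. The Bcl11b+/N440K values rest on 6, 3 and 8 reads, so the interval passed the filter on low counts through Bcl11b+/+ alone. All Bcl11b+/N440K libraries lay below all Bcl11b+/+ libraries, a fall of 3.16-fold (log2 fold change -1.66 ± 0.39 SE, edgeR adjusted p = 0.0158). DESeq2 gave an adjusted p of 0.380 and limma voom 0.124. In edgeR the adjusted p was 0.0658 without Bcl11b+/N440K library 1, 0.0809 without its library 2, 0.0711 without Bcl11b+/+ library 2 and 0.0877 without its library 3.

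The other Tcra/Tcrd intervals were not called. The strongest inside the window lay 147 bp 3′ of Trav15-1-dv6-1, a V segment shared by alpha and delta chains (chr14:53560294-53560494). It had 22.7, 17.7 and 17.2 CPM in Bcl11b+/N440K, against 26, 26.3 and 24.9 CPM in Bcl11b+/+. The genotypes did not overlap, yet the difference missed the threshold (log2 fold change -0.42 ± 0.20 SE, edgeR adjusted p = 0.362). The next, 2293 bp 5′ of Trav17, had 20.1 ± 5.48 CPM in Bcl11b+/N440K and 24.3 ± 3.69 CPM in Bcl11b+/+ (SD, n = 3 each; edgeR adjusted p = 0.678). An interval 10 bp 3′ of Trav16n had 5.54, 5.49 and 6.25 CPM in Bcl11b+/N440K, against 2.48, 1.24 and 3.00 CPM in Bcl11b+/+, with no overlap (log2 fold change 1.37 ± 0.51 SE, edgeR adjusted p = 0.197).

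The delta chain genes lie inside the alpha chain locus and are deleted when Tcra rearranges, so their copy number can differ between thymocytes. In the span between Trdj2 and Trdc, the C region of the delta chain, which is known to hold the Tcrd enhancer, the tested interval had 6.21 ± 1.53 CPM in Bcl11b+/N440K and 5.49 ± 2.28 CPM in Bcl11b+/+ (SD, n = 3 each; edgeR adjusted p = 0.869). The interval past Trdc, toward Trdv5, had 11.2 ± 0.877 CPM in Bcl11b+/N440K and 8.70 ± 0.714 CPM in Bcl11b+/+ (edgeR adjusted p = 0.680). Between Trdv5 and Traj61, the first of the alpha chain J segments, an interval (chr14:54152943-54153143) had 19.4, 12.8 and 13 CPM in Bcl11b+/N440K, against 19.8, 20.6 and 21.0 CPM in Bcl11b+/+. Its genotypes did not overlap, by a narrow margin in Bcl11b+/N440K library 1 (log2 fold change -0.44 ± 0.23 SE, edgeR adjusted p = 0.405). Over the 6 tested intervals among the J segments the median log2 fold change was -0.38, and none was called. The tested interval nearest to Trac, 828 bp from Traj9, had 7.02 ± 2.42 CPM in Bcl11b+/N440K and 8.38 ± 1.66 CPM in Bcl11b+/+ (SD, n = 3 each; edgeR adjusted p = 0.796).

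**Figure D3:**
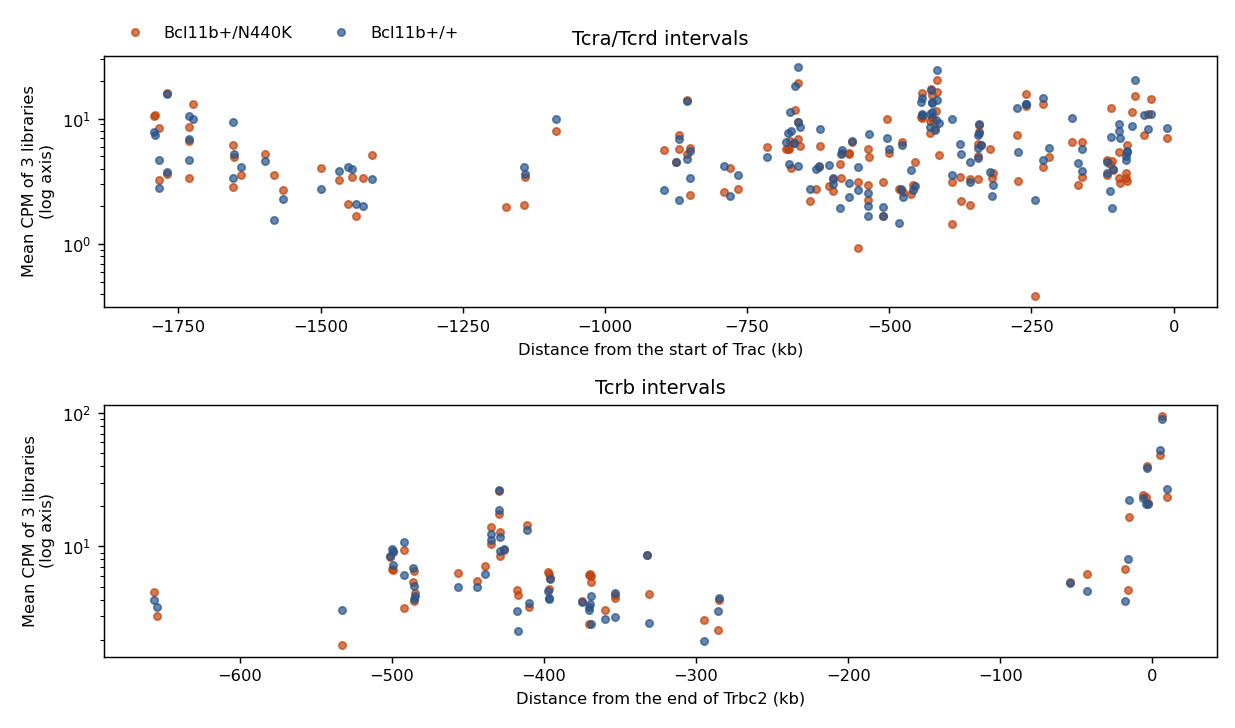
Mean Bcl11b ChIP signal of 3 libraries (CPM, log axis) at every Tcra/Tcrd interval by distance from the start of Trac (top) and at every Tcrb interval by distance from the end of Trbc2 (bottom), Bcl11b+/N440K in orange and Bcl11b+/+ in blue. Tcrb signal peaks beside Trbc2 at 94.0 CPM in Bcl11b+/N440K and 90.6 CPM in Bcl11b+/+; the Bcl11b+/+ mean of 0 beside Trav16d-dv11 cannot be drawn on a log axis.

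Tcrg, the gamma chain locus, was the smallest and 4 of its 14 intervals were tested. Its strongest interval lay between Trgv7 and Trgv4, V segments of the first gamma cluster (chr13:19182383-19182583, rank 2736). It had 44.9, 46.4 and 47.9 CPM in Bcl11b+/N440K, against 43.4, 28.4 and 36.9 CPM in Bcl11b+/+. The genotypes did not overlap, but the difference missed the threshold (log2 fold change 0.38 ± 0.16 SE, edgeR adjusted p = 0.259). Enhancers of the gamma chain lie past its C regions. The interval 3238 bp past Trgc1 had 8.93 ± 1.09 CPM in Bcl11b+/N440K and 5.66 ± 2.05 CPM in Bcl11b+/+ (SD, n = 3 each; edgeR adjusted p = 0.417). The one 6327 bp from Trgv3 had 8.17 ± 0.781 CPM in Bcl11b+/N440K and 4.65 ± 1.96 CPM in Bcl11b+/+ (edgeR adjusted p = 0.302). The interval between Trgj1 and Trgc1 had 7.06 ± 2.52 CPM in Bcl11b+/N440K and 7.23 ± 1.35 CPM in Bcl11b+/+ (edgeR adjusted p = 0.998).

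Summed over all 14 intervals, Tcrg took 0.00956, 0.0108 and 0.0097% of the counts in Bcl11b+/N440K, against 0.00867, 0.00658 and 0.00752% in Bcl11b+/+. Every Bcl11b+/N440K library lay above every Bcl11b+/+ library. No Tcrg interval was called by edgeR, DESeq2 or limma voom, and 2 of the 4 had an unadjusted edgeR p under 0.05. Over all tested intervals 1.14% were called by edgeR and 12.7% had such a p. With 4 tested intervals, these counts cannot be told apart from those shares. Outside the window, 4.1 kb past Trgc4, an interval had 22.7 ± 1.93 CPM in Bcl11b+/N440K and 15.4 ± 4.35 CPM in Bcl11b+/+ (SD, n = 3 each; edgeR adjusted p = 0.229).

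At Igh, all 12 calls lay among the 50 tested intervals of the V region, against 1.14% called over all tested intervals. The span that holds the enhancer had no call among 5 tested intervals, which is near that share. That span runs from Ighj4, the last heavy chain J segment, to Ighm, the C region of IgM, contains the intronic heavy chain enhancer and had 5 tested intervals. The strongest (chr12:113427408-113427608, 1006 bp from Ighj4, rank 382) had 75.9, 79.9 and 79.6 CPM in Bcl11b+/N440K, against 57.0, 58.9 and 61.4 CPM in Bcl11b+/+. Every Bcl11b+/N440K library lay above every Bcl11b+/+ library, and the difference missed the threshold (log2 fold change 0.41 ± 0.12 SE, edgeR adjusted p = 0.0804). The adjusted p of this interval was 0.670 in DESeq2 and 0.0844 in limma voom. The other 4 had 10.9 to 22.7 CPM in Bcl11b+/N440K and 14.6 to 21.5 CPM in Bcl11b+/+, with edgeR adjusted p of 0.367 to 0.816. Summed over the 5, the span had 144 ± 12.8 CPM in Bcl11b+/N440K and 130 ± 6.11 CPM in Bcl11b+/+ (SD, n = 3 each). Inside Ighd, the C region of IgD, an interval had 14.3 ± 3.97 CPM in Bcl11b+/N440K and 11.6 ± 2.57 CPM in Bcl11b+/+ (edgeR adjusted p = 0.709).

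The Igh V region held 119 intervals, of which 50 were tested. The tested log2 fold changes had a median of -0.58, with 36 negative and 14 positive, and 10 intervals were called lower and 2 higher in Bcl11b+/N440K. Over all of Igh the median was -0.51. Over the 24 Igh intervals at or above the median CPM of all tested intervals, a higher cutoff than the median of the whole table, it was -0.06. With that filter the 6 intervals more than 2000 kb from Ighm had a median of -0.91, and 3 members were called, all lower. Neither of the 2 intervals called higher passed that filter. All 119 intervals together had 696 ± 66.4 CPM in Bcl11b+/N440K and 860 ± 45.8 CPM in Bcl11b+/+ (SD, n = 3 each). The whole locus took 0.0807, 0.0761 and 0.0889% of the counts in Bcl11b+/N440K, against 0.0958, 0.0931 and 0.1% in Bcl11b+/+, with no overlap. The strongest V region interval, between Ighv1-10 and Ighv1-11 (chr12:114609394-114609594), ran the other way. It had 58.1, 45.8 and 59.9 CPM in Bcl11b+/N440K, against 37.2, 39.5 and 44.6 CPM in Bcl11b+/+ (log2 fold change 0.43 ± 0.14 SE, edgeR adjusted p = 0.136). The interval inside Ighv1-12 had 35.9 ± 5.43 CPM in Bcl11b+/N440K and 31.5 ± 4.58 CPM in Bcl11b+/+ (edgeR adjusted p = 0.657).

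The largest change of any member was at Ighv1-46, a V segment of the Ighv1 family, in an interval inside the segment (chr12:114977673-114977873). It had 13.8, 11 and 13 CPM in Bcl11b+/N440K, against 0.620, 0.823 and 1.72 CPM in Bcl11b+/+. The Bcl11b+/+ values rest on 1, 2 and 4 reads, so the interval passed the filter on low counts through Bcl11b+/N440K alone. The Bcl11b+/N440K libraries lay far above the Bcl11b+/+ libraries, an 11-fold rise (log2 fold change 3.45 ± 0.46 SE, edgeR adjusted p = 2.32e-06). The call held in each of the 14 alternatives that tested this interval. These included DESeq2 (adjusted p = 0.0012), limma voom (adjusted p = 0.0119) and the removal of any single library. They also included reads recovered from the deposited CPM values, which equal the counts and so repeat the main test. The filter at the median CPM of all tested intervals left this interval out. The other rise was between Ighv1-67 and Ighv1-68 (chr12:115605028-115605228), at 18.8, 14.6 and 15.6 CPM in Bcl11b+/N440K, against 3.72, 8.23 and 8.16 CPM in Bcl11b+/+. These genotypes did not overlap, with a 2.33-fold rise (log2 fold change 1.22 ± 0.29 SE, edgeR adjusted p = 0.0156). The edgeR adjusted p was 0.107 without Bcl11b+/N440K library 1 and 0.0985 without Bcl11b+/+ library 1. For this interval DESeq2 gave an adjusted p of 0.339 and limma voom 0.0418.

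The largest fall lay 1800 bp 5′ of Ighv1-70 (chr12:115693882-115694082). It had 2.21, 3.05 and 2.60 CPM in Bcl11b+/N440K, against 11.2, 9.47 and 12 CPM in Bcl11b+/+. The Bcl11b+/N440K values rest on 4, 5 and 5 reads, so the interval passed the filter on low counts through Bcl11b+/+ alone. The genotypes were well apart, with a 4.08-fold fall (log2 fold change -2.03 ± 0.40 SE, edgeR adjusted p = 0.00237) that kept its call without any single library. The adjusted p was 0.134 in DESeq2 and 0.0738 in limma voom. At Ighv1-77 an interval 11 bp 3′ of the segment had 2.77, 3.05 and 3.64 CPM in Bcl11b+/N440K, against 8.67, 9.06 and 13.3 CPM in Bcl11b+/+ (log2 fold change -1.71 ± 0.39 SE, edgeR adjusted p = 0.0117). This interval also passed the filter through Bcl11b+/+ alone, with 5, 5 and 7 reads in Bcl11b+/N440K. It lost its call without Bcl11b+/N440K library 1 (edgeR adjusted p = 0.0733) and without Bcl11b+/+ library 3 (0.140). Inside Ighv1-82, the interval had 6.64, 11 and 6.77 CPM in Bcl11b+/N440K, against 19.2, 16.5 and 19.3 CPM in Bcl11b+/+ (log2 fold change -1.18 ± 0.27 SE, edgeR adjusted p = 0.0118). It was also called by limma voom (adjusted p = 0.0272), and its edgeR adjusted p was 0.102 and 0.0866 without Bcl11b+/N440K library 1 or 3 and 0.0515 without Bcl11b+/+ library 3.

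The other 7 falls of the Igh V region had edgeR adjusted p of 0.0253 to 0.0472, and each lost its call on removal of at least 3 of the 6 libraries, taken singly. Besides the interval in the Gm40900 window, they lay inside or beside V segments of the Ighv1 family. Inside Ighv1-81, the signal was 12.2, 11 and 14.1 CPM in Bcl11b+/N440K, against 18.0, 24.7 and 24.5 CPM in Bcl11b+/+. Inside Ighv1-79 it was 8.31, 3.66 and 10.9 CPM in Bcl11b+/N440K, against 13.6, 17.7 and 17.2 CPM in Bcl11b+/+. Inside Ighv1-27 it was 4.43, 7.93 and 9.37 CPM in Bcl11b+/N440K, against 9.91, 14.8 and 21.0 CPM in Bcl11b+/+. The Bcl11b+/N440K libraries were the low ones at each of these segments, without overlap. Beside Ighv1-78 (14 bp 3′) the values were 3.32, 5.49 and 4.16 CPM in Bcl11b+/N440K, against 9.91, 9.88 and 14.6 CPM in Bcl11b+/+. Between Ighv1-77 and Ighv1-78, 1700 bp from the first, they were 7.75, 8.54 and 4.68 CPM in Bcl11b+/N440K, against 17.3, 12.4 and 16.3 CPM in Bcl11b+/+. Beside Ighv1-38 (21 bp 3′) they were 1.11, 4.27 and 6.77 CPM in Bcl11b+/N440K, against 10.5, 10.3 and 11.6 CPM in Bcl11b+/+. Again no Bcl11b+/N440K library reached the lowest Bcl11b+/+ library.

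The share of lower intervals varied along Igh. Within 500 kb of Ighm on the V segment side, the 14 intervals summed to nearly the same level in both genotypes (200.7 ± 10.8 CPM in Bcl11b+/N440K and 200.3 ± 6.28 CPM in Bcl11b+/+, SD, n = 3 each). This near-equal sum joined parts that ran opposite ways. The 5 intervals from Ighj4 to Ighm had 144 ± 12.8 CPM in Bcl11b+/N440K and 130 ± 6.11 CPM in Bcl11b+/+, with overlap. The 6 intervals among the D segments had 47.76 ± 2.44 CPM in Bcl11b+/N440K and 59.02 ± 4.05 CPM in Bcl11b+/+, without overlap. All 4 tested intervals among the D segments were on the negative side. So were 6 of the 9 tested within 500 kb, with none called. From 2000 to 2500 kb, Bcl11b+/N440K had 71.8% of the Bcl11b+/+ sum over 41 intervals, with 7 of 20 tested intervals called lower and 1 higher. From 2500 kb to the end it had 52.8% over 6 intervals. The sum was 68.5% of Bcl11b+/+ from 500 to 1000 kb, 96.4% from 1000 to 1500 kb and 90.9% from 1500 to 2000 kb, so the level did not fall steadily with distance. The 47 intervals from 2000 kb on summed to 229, 214 and 263 CPM in Bcl11b+/N440K, against 331, 338 and 357 CPM in Bcl11b+/+. The genotypes did not overlap there, and of the 23 tested intervals 18 were on the negative side, with a median of -0.86. The kb limits were chosen with the values known.

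**Figure D4:**
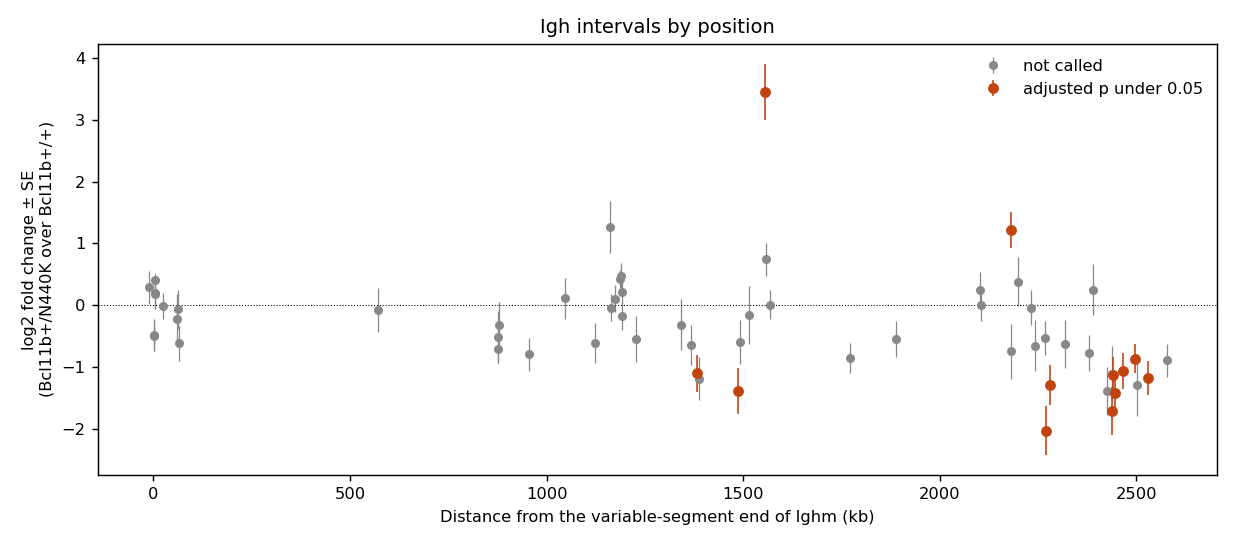
Log2 fold change ± SE (Bcl11b+/N440K over Bcl11b+/+, y axis) of the 60 tested Igh intervals by distance in kb from the end of Ighm that faces the V segments (x axis), orange where the edgeR adjusted p was under 0.05. From 2000 kb on, 18 of 23 points lie below 0, and the highest point, at Ighv1-46, is at 3.45.

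Igh shares chromosome 12 with Bcl11b itself, whose gene body ends 5.28 Mb before the window. Of the 29 tested intervals in Bcl11b or nearest to it within 100 kb, 8 were called lower in Bcl11b+/N440K. Over all tested intervals 0.681% were called lower and 0.46% higher. In the 5 Mb before the window, on the side of Bcl11b, the medians per Mb were -0.01 to 0.13. The sums per Mb were 97.5% to 106% of Bcl11b+/+. Counted from the window, 1 of 72 tested intervals was called in Mb 3 and 1 of 56 in Mb 5, each higher. None was called in the other Mb of this side. In the first Mb beyond the V segment end, 24 of 29 tested intervals were on the negative side (median -0.30), 3 were called lower and 1 higher, and the sum was 83.3% of Bcl11b+/+. The sum was 84.4% in the second Mb, with 1 of 14 tested intervals called lower, and 113% in the third, with none of 12 called. Copy number of the DNA, differences in sequence between the chromosomes that carry the alleles, and the assignment of reads among near-identical Ighv1 segments were not tested.

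Most intervals near V segments sat at opposite sides of the segment in Tcra/Tcrd and Igh. Direction was read from the order of V and C segments, and intervals within 500 bp of a V segment were counted. In Tcra/Tcrd, 43 of 79 (54.4%) lay on the 5′ side, where V segment promoters lie, at a median of 153 bp. In Igh, 41 of 68 (60.3%) lay on the 3′ side, where the recombination signal lies, at a median of 39 bp, and 5 lay on the 5′ side. Tcrb was mixed, with 10 of 26 on the 5′ side, 9 inside and 7 on the 3′ side. These counts used both genotypes together and were not tested, since neighbouring V segments share sequence. Of the tested Igh intervals within 500 bp, 5 of 14 inside a segment were called (4 lower) and 3 of 16 on the 3′ side (all lower). Over all tested intervals 1.14% were called. On the 5′ side only 2 were tested and none was called, so calls cannot be compared between the sides.

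**Figure D5:**
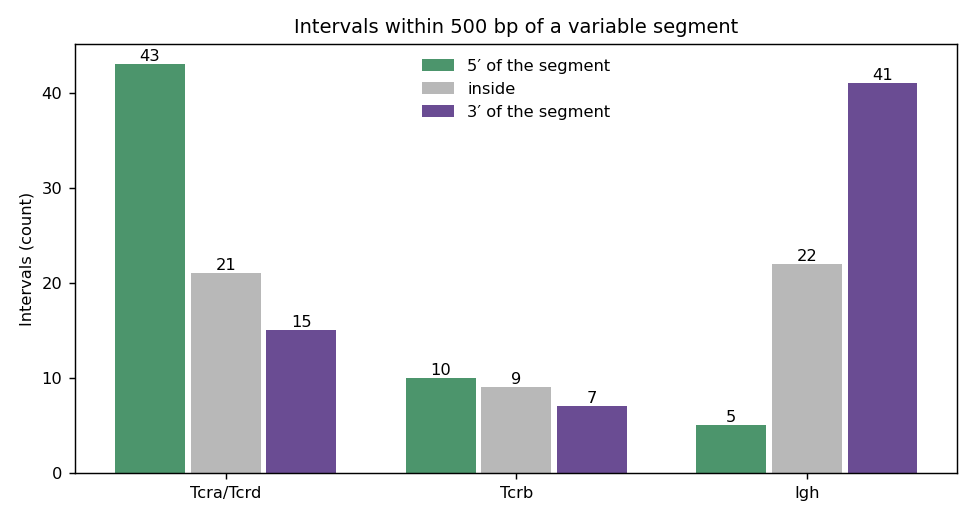
Number of Bcl11b intervals (y axis) within 500 bp of a V segment on its 5′ side, inside it or on its 3′ side, in 3 loci (x axis). The 5′ side holds 43 of the Tcra/Tcrd intervals and 5 of the Igh intervals.

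Igk held 5 intervals, 3 of them tested, and no interval lay between Igkj5 and Igkc, where the intronic kappa enhancer is known to lie. The strongest lay between Igkv3-1 and Igkj1 (chr6:70714363-70714563), at 33.2, 22.6 and 29.1 CPM in Bcl11b+/N440K, against 17.3, 23.1 and 22.3 CPM in Bcl11b+/+. The libraries overlapped (log2 fold change 0.42 ± 0.20 SE, edgeR adjusted p = 0.344). The other tested intervals had 8.39 ± 0.130 and 7.18 ± 1.68 CPM in Bcl11b+/N440K and 10.8 ± 1.53 and 8.18 ± 2.80 CPM in Bcl11b+/+, with edgeR adjusted p of 0.652 and 0.928. No Igk interval was called by edgeR, DESeq2 or limma voom, and 1 of the 3 tested had an unadjusted edgeR p under 0.05. Over all tested intervals these shares were 1.14% for edgeR calls and 12.7% for such a p, and 3 intervals are too few to compare. The locus took 0.00443 ± 0.000564% of the counts in Bcl11b+/N440K and 0.00425 ± 0.000327% in Bcl11b+/+ (SD, n = 3 each).

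Bcl11b intervals near the genes that act on these loci were also read from the same fit. The list held 17 genes: the recombinases Rag1 and Rag2, Dntt, which adds bases at the joints, the repair genes Lig4, Xrcc4, Xrcc5, Xrcc6, Prkdc, Dclre1c and Nhej1, the pre-T cell receptor chain Ptcra, the signalling chains Cd3d, Cd3e, Cd3g and Cd247, and Pdia3 and Trat1. Of 100 tested intervals near 16 of these genes, 0 were called by edgeR, DESeq2 or limma voom, and 8 had an unadjusted edgeR p under 0.05. Over all tested intervals 1.14% were called by edgeR and 12.7% had such a p, so a count of 0 in 100 is near the background. The log2 fold changes were 48 negative and 52 positive, with a median of 0.00. The strongest interval near Xrcc6 averaged 132 CPM over the 6 libraries, near Cd3d 85.2 CPM, near Dntt 58.6 CPM and near Rag1 48.9 CPM. The single tested interval near Prkdc had a log2 fold change of 0.65 and was not called.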

How the data were processed

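Per the labels, the samples were 6 Bcl11b ChIP libraries and 2 inputs from thymocytes. The submitters' processing notes list Bowtie2 2.3.5, fastp 0.20.0, edgeR 3.38.2, SAMtools 1.9, bedtools and MACS2, without their order, and mm10 as the build. Peak calling on single or pooled libraries, the handling of reads with several matches and any removal of duplicates are not given in the sources used here. For the ChIP libraries, the authors deposited unnormalized read counts over 93708 intervals, each 201 bp long. They also deposited CPM values for 63098 of the intervals. These gave whole reads for 100% of values (tolerance 0.01) that equal the counts, so a count test on them called the same 13 members. The inputs were not used.

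Counts were filtered with filterByExpr, scaled with TMM and tested with edgeR 4.0.16 (glmQLFit and glmQLFTest, two-sided, Benjamini-Hochberg over all 63098 tested intervals, threshold 0.05) in R 4.3.3, with genotype as the only term. The filter asks for enough reads in at least 3 libraries, the size of a genotype group. An interval could therefore enter the test through a single genotype. The members were then read from this fit. DESeq2 1.42.0 and limma 3.58.1 were alternatives, beside total count scaling, loess offsets, other filters, a stricter threshold, a replicate block and the removal of each library. Chi-square per degree of freedom between pairs of libraries was 1.24 to 1.42 within a genotype and 1.55 to 1.77 across genotypes, so no pair differed by sampling noise alone.

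Positions of segments and genes were those of RefSeq for GRCm38.p6, whose coordinates are those of mm10. No strand is listed there, so direction was inferred from segment order, and Igk, Trbv31 and Trdv5 were left out of counts by side. A gene's intervals were those in its body or, otherwise, nearest to it within 100 kb. Promoter sequences are RefSeq's. Intervals of enhancer spans have no sequence here because no genome was used. Named intervals were all those called, the 3 with the highest mean CPM and the 2 with the smallest p of each locus, and those nearest the C regions and enhancer spans. The promoter windows and the untested intervals with values were named after the values were seen. The members and gene lists were chosen with earlier results of these data known.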

Additional observations from a re-analysis of the deposited data

How the results depend on the processing

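The 13 called members became 1 with DESeq2, 3 with limma voom and 2 with the threshold set to 0.01. With the filter set to the median CPM of all tested intervals, 3 were called (of 54 tested members). There were 10 with loess offsets, 9 with no filter on low counts and 13 with total counts. Removing 1 library gave 2 to 11 calls, of which 2 to 9 were among the 13. Replicate numbers did not pair the libraries: correlations of deviations were -0.00372, 0.0278 and 0.0577 for equal numbers. With the replicate block 13 members were called, 12 of them shared, and the interval near Ighj4 passed the threshold (adjusted p = 0.0405).

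Of the median log2 fold changes, Tcrb (-0.01) was 0.031 with limma voom and 0.084 with no filter, Tcrg (0.54) was 0.35 with no filter and 0.35 with the median CPM filter, Igh (-0.51) was -0.44 with no filter and -0.060 with the median CPM filter, and Igk (-0.13) was 0.39 with the median CPM filter. Removing 1 library gave -0.15 to -0.0056 for Tcra/Tcrd, -0.033 to 0.091 for Tcrb, 0.31 to 0.64 for Tcrg, -0.51 to -0.42 for Igh and -0.35 to 0.11 for Igk. The median from 2000 kb on in Igh (-0.86) ran from -0.91 to -0.60 over all alternatives. The cause of these shifts was not tested, beyond the smaller number of intervals that a stricter filter leaves. The locus shares of counts stayed within the spread between libraries under both other totals. Most Igh V calls rest on intervals of few reads, where the depth gives wide errors.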
